A study of Mus musculus with 1627 samples.

Results

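The 7 genes described here, Fos, Fosb, Fosl2, Jun, Junb, Jund and Atf3, encode subunits of the transcription factor AP-1. They were taken by symbol, and all 7 were found among the 23725 genes of the count table. Regulatory T cells (Tregs), the T cells that express Foxp3 and restrain immune responses, were profiled as single cells with inDrops, which encloses each cell in a droplet with its own barcode and marks every mRNA molecule with an identifier (UMI). The mice were male B6 Foxp3-Ires-Gfp animals aged 8 months, in which green fluorescent protein is made wherever Foxp3 is transcribed, and all were studied 4 days after muscle was injured with cardiotoxin, a venom toxin that destroys muscle fibres. Live cells positive for the T cell receptor beta chain, CD4 and the reporter were sorted from spleen (1 library, 15.9% of the 1627 cells) and from injured muscle (muscle library 1 with 41.4% and muscle library 2 with 42.7% of the cells). Muscle was digested with collagenase and dispase, whereas spleen was dissociated mechanically, so tissue and digestion cannot be told apart in any comparison of muscle with spleen. All cells came from injured mice, so no library shows the uninjured state, and the labels name no animal.

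AP-1 is a dimer of basic leucine zipper proteins that binds short DNA elements in promoters and enhancers. Fos proteins need a partner to bind DNA, usually a Jun protein, whereas Jun proteins can also pair with each other or with factors of the ATF family. Several AP-1 genes are immediate early genes, which are transcribed within minutes of a stimulus without new protein synthesis and whose mRNAs decay quickly, and in T cells AP-1 acts together with NFAT downstream of the T cell receptor. Cell dissociation at warm temperature is known to raise immediate early mRNAs in many tissues.

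Fos and Fosb were the pair of members that varied together most over muscle cells, and Jun encodes the classical partner of Fos, so the bases before the transcription start of these 3 genes are shown. The 250 bases before the RefSeq start (GRCm38.p6) lie at chr12:85473640-85473889 on the plus strand for Fos, at chr7:19310046-19310295 on the minus strand for Fosb and at chr4:95052223-95052472 on the minus strand for Jun. Capitals mark the motifs found.

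Fos: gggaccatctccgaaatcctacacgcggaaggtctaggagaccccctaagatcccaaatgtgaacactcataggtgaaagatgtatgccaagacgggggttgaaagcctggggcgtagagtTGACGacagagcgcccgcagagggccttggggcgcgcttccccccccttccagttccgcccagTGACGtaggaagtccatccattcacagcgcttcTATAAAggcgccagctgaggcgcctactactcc
Fosb: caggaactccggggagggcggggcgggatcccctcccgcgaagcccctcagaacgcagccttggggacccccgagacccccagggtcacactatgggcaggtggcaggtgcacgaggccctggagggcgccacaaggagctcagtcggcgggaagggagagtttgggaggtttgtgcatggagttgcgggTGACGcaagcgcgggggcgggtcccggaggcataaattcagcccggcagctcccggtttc
Jun: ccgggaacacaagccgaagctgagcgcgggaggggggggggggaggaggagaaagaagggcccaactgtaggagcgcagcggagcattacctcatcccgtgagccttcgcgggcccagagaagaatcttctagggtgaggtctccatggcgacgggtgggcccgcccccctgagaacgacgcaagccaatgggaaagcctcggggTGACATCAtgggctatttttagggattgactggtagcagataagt

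Motifs were searched on both strands in the same 250 bases of 27025 RefSeq promoters. The Fos window held a TATA box (TATAAA, in 12.97% of all promoters) 33 to 28 bases before the start. It also held 2 copies of the core of the cyclic AMP response element (TGACG, in 17.9% of all promoters, which is also part of the full element TGACGTCA). The Fosb window held 1 copy of TGACG, 60 to 56 bases before the start. The Jun window held TGACATCA, a site known to bind dimers of Jun and ATF proteins, 45 to 38 bases before the start, which 3.02% of all promoters hold. Of the other 4 members, Junb and Atf3 each held 1 TGACG. The AP-1 site TGANTCA, the full element TGACGTCA and the CArG box to which serum response factor binds were in 0 of the 7 windows, against 6.87%, 1.62% and 1.40% of all promoters. Bases farther from the start than these 250 were not searched. The RefSeq start is not the gene start given below for every member. The Jund window (chr8:70697489-70697738) lies upstream of the gene given below. Those of Fosl2 (chr5:32136222-32136471) and Atf3 (chr1:191183334-191183583) lie inside it. The search for TGACG was added after the sequences had been seen, and a match in these letters says nothing of binding in these cells.

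Tregs of the spleen gave 982570 UMIs, and those of muscle gave 1533277 and 1916496. The median UMI count per cell was 3541 in spleen against 1976 and 2488 in muscle libraries 1 and 2, and 1 UMI was worth 1.02, 0.652 and 0.522 CPM (UMIs in every 1000000 of the library sum). Ribosomal protein genes took 22.3% of spleen UMIs against 13.4% and 13.7% in muscle. Muscle libraries 1 and 2 shared 11 cell barcodes, and spleen shared 1 with muscle library 1 and 0 with muscle library 2. In the myeloid list of 12 genes, 8 were at 0 in spleen and 5 in each muscle library, and the summed level was 411.2 CPM in spleen against 613.1 and 575.5 CPM in muscle, mostly from Ctss and Cst3. In the muscle fibre list of 9 genes, 8, 6 and 4 were at 0 and the sums were 25.4, 26.1 and 42.8 CPM. B cell markers summed to 88.5, 187.8 and 187.8 CPM, and 2 of the 3 genes measured were higher in muscle. Cd74 went from 75.3 CPM in spleen to 153.9 and 156.01 CPM, and H2-Aa, which like Cd74 serves antigen presentation, from 0 UMIs to 31 and 37, whereas Cd79a had at most 1 UMI in any library. Genes of CD8 T and natural killer cells summed to 218.8, 270 and 234.8 CPM, endothelial genes to 116.02, 62.6 and 58.4 CPM (all from Pecam1), fibroblast genes to 4.07, 0.652 and 3.13 CPM, and erythroid and platelet genes to 5.09, 7.17 and 11.5 CPM. The Treg markers Foxp3, Cd4, Cd3e, Il2ra and Ikzf2 were all detected in each library. The part of these other cells in the results below was not tested.

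Each library is 1 sample, cells are not replicates, and there are 2 muscle libraries against 1 spleen library. Therefore no test between tissues was made, and a rule of size was used. A gene counted as higher when each muscle library reached 2 times its spleen level, and as lower when spleen reached 2 times the level of each muscle library. The rule was applied to the 7617 genes whose UMIs, summed over all cells, reached 50, and the 7 members were among them, with 19 UMIs (Atf3 in spleen) to 6280 UMIs (Junb in muscle library 2) in a library. Intervals are 95% and exact (Poisson for CPM, conditional binomial for ratios). They describe counting error alone and are too narrow where the UMIs of a gene are concentrated in few cells. The 2 muscle libraries differed from each other by a median of 0.27 on the log2 scale over all genes.

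By this rule Fosb and Jund, 2 of the 7 members, were higher in muscle and 0 were lower. Over all genes tested, 7.47% were called higher and 3.45% lower. The median log2 fold of the 7 members was 0.59, beside 0.05 over all genes. Together the 7 genes made up 0.337% of all UMIs in spleen against 0.649% and 0.654% in muscle libraries 1 and 2, which is 1.93-fold and 1.94-fold more in muscle. The 3 Fos family genes together stood farther from spleen than the 3 Jun family genes. The Fos family went from 578.1 CPM in spleen to 1477 and 1514 CPM in muscle, ratios of 2.55 (2.33 to 2.81) and 2.62 (2.39 to 2.87). The Jun family went from 2771 to 4980 and 5010 CPM, ratios of 1.80 (1.72 to 1.88) and 1.81 (1.73 to 1.89).

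The composition of AP-1 mRNA therefore differed between the tissues. Of all UMIs of the 7 genes, Junb held 63.1% in spleen against 48.1% and 50.1% in muscle. Jund held 15.9% against 26.8% and 24.2%, and Fosb held 2.24% against 9.35% and 8.50%. Fos kept a like share in muscle library 1, with 6.91% against 6.80% (5.96 to 7.71) in spleen. In muscle library 2 its share was larger, at 8.46% (7.97 to 8.96). Fosl2 held 8.13%, 6.49% and 6.198%, and Jun 3.32%, 1.88% and 2.27%. These shares compare each gene with itself across libraries, since counts from the 3' side of transcripts do not rank genes against each other.

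**Figure D1:**
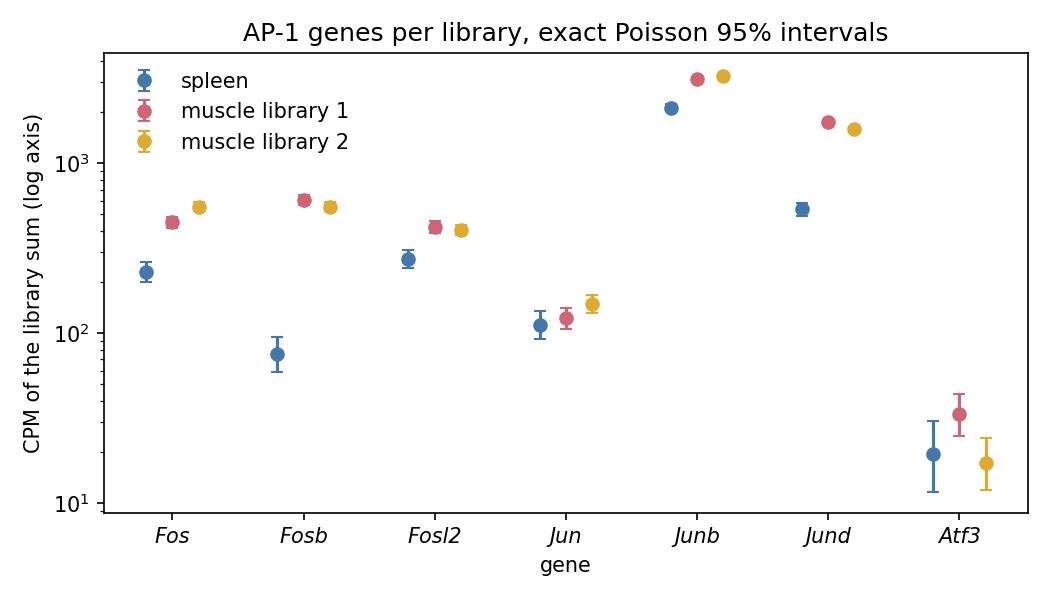
Level of each of the 7 genes in each library, in CPM on a log axis; points are library sums and bars are exact Poisson 95% intervals. For Fosb and Jund both muscle points lie more than 2 times above the spleen point, whereas the Jun points lie close together and the spleen point of Atf3 lies between its muscle points.

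Fosb encodes a Fos protein that is induced with Fos and, in a shortened form known from neurons, can outlast the stimulus. It was counted at 75.3 CPM in spleen (74 UMIs), 606.5 CPM in muscle library 1 (930 UMIs) and 555.7 CPM in muscle library 2 (1065 UMIs). Both muscle libraries were far above spleen and near each other, with a ratio of muscle library 2 to muscle library 1 of 0.916. The ratios over spleen were 8.05 (6.35 to 10.3) and 7.38 (5.83 to 9.47). The gene lies on chromosome 7 at 19302696 to 19310051 (GRCm38, minus strand, 4 exons).

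Fos, the founding member of the family, lies on chromosome 12 at 85473890 to 85477273 (plus strand, 4 exons). It was counted at 228.99 CPM in spleen, 448.7 CPM in muscle library 1 and 553.1 CPM in muscle library 2. Both muscle libraries were above spleen, but the ratio was 1.96 (1.68 to 2.29) in muscle library 1 and 2.42 (2.09 to 2.80) in muscle library 2, so Fos missed the 2-fold rule through muscle library 1. It met the rule with equal weight per cell and without cells over 3 times the median UMI count.

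Fosl2, which encodes Fra-2, a Fos protein that lacks the strong activation domain of Fos, was counted at 273.8 CPM in spleen, 421.3 CPM in muscle library 1 and 405.4 CPM in muscle library 2. The muscle libraries were close to each other and above spleen, by 1.54 (1.33 to 1.78) and 1.48 (1.29 to 1.71). It lies on chromosome 5 at 32135801 to 32157842 (plus strand, 4 exons).

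Among the Jun genes, Jund, which encodes the Jun protein that resting cells also make, showed the wider gap. It was counted at 534.3 CPM in spleen, 1739 CPM in muscle library 1 (2666 UMIs) and 1585 CPM in muscle library 2 (3037 UMIs). Both muscle libraries stood well above spleen, by 3.25 (2.96 to 3.58) and 2.97 (2.70 to 3.26). Junb, which encodes a Jun protein required for several T helper and Treg programmes, was counted at 2125 CPM in spleen (2088 UMIs), 3120 CPM in muscle library 1 (4783 UMIs) and 3277 CPM in muscle library 2 (6280 UMIs). Its ratios were 1.47 (1.39 to 1.55) and 1.54 (1.47 to 1.62), below the 2-fold rule.

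Jun itself was counted at 111.95 CPM in spleen (110 UMIs), 121.96 CPM in muscle library 1 and 148.2 CPM in muscle library 2. Over all cells the spleen and muscle levels were close, with ratios of 1.09 (0.856 to 1.39) and 1.32 (1.06 to 1.67). The interval of the first includes no difference. Jun lies on chromosome 4 at 95049034 to 95052222 (minus strand), Junb on chromosome 8 at 84974484 to 84978718 (minus strand) and Jund on chromosome 8 at 70698949 to 70700616 (plus strand), and each has 1 exon. An antisense gene faces Jun (Junos, over 21.6% of its length) and Jund (Gm11175, over 55.1%), and Prdx2 on the other strand overlaps 8.29% of Junb at its 3' end. Whether the counting used strand is not given in the sources used here, so reads of these genes and their partners cannot be told apart. Prdx2 was itself counted at 87.5, 112.2 and 103.3 CPM, and the 2 antisense genes have no row in the table.

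Atf3, a stress-induced factor that pairs with Jun proteins and often represses, was rare. It was counted at 19.3 CPM in spleen (19 UMIs), 33.3 CPM in muscle library 1 (51 UMIs) and 17.2 CPM in muscle library 2 (33 UMIs). Spleen lay between the muscle libraries, and the ratios were 1.72 (0.998 to 3.09) and 0.890 (0.492 to 1.66). For Atf3 the muscle libraries differed more from each other, with a ratio of 0.518 (0.324 to 0.818), than the mean of them did from spleen. It lies on chromosome 1 at 191170296 to 191218039 (minus strand, 4 exons).

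To compare shares of cells across depths, each cell was thinned to 1000 UMIs. The cells too shallow for this, 0 in spleen and 26 and 7 in the muscle libraries, were left out. Jund was seen in 38.6% of thinned spleen cells, 74.5% of cells in muscle library 1 and 72.1% in muscle library 2. Fosb was seen in 6.18%, 25.8% and 23.4% of cells. Junb, the most widely detected member, was seen in 74.5%, 83.2% and 82.97%. For these 3 genes the intervals of both muscle libraries lay above that of spleen, which was so for 3.37% of all genes tested. Fos was seen in 13.5% (9.60 to 18.3) of spleen cells, 22.7% (19.5 to 26.1) and 20.7% (17.7 to 23.9) of muscle cells, and the interval of muscle library 2 overlapped that of spleen. Fosl2 was seen in 15.1%, 24.5% and 21.98%, Jun in 6.95%, 9.41% and 7.28%, and Atf3 in 0.772%, 3.09% and 1.46%.

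Without thinning, Jund was seen in 69.1%, 89.6% and 88.2% of cells, Fosb in 11.2%, 32.8% and 32.6%, Junb in 89.2%, 92.1% and 92.2%, and Fos in 24.7%, 32.8% and 31.3%. Unthinned shares for Fosl2 were 22.4%, 34.9% and 35.2%, for Jun 11.97%, 13.7% and 12.8%, and for Atf3 3.09%, 3.86% and 3.31%. Without thinning the Junb intervals of spleen and muscle overlapped, whereas those of Fosl2 in muscle lay above spleen, as they also did at 750 and at 1500 UMIs per cell. The sort holds no cell type known to lack these genes, so the share that free RNA alone would give was not measured.

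Beyond the share of cells, muscle held cells with many Fos or Fosb UMIs that spleen did not show. At 1000 UMIs per cell, 5 or more Fosb UMIs were found in 0 spleen cells, 29 cells of muscle library 1 (4.48%) and 30 cells of muscle library 2 (4.37%). The upper limit of the interval for spleen was 1.41%. For Fos the same counts were 0, 10 (1.54%) and 27 (3.93%) cells, and the intervals of spleen and muscle library 1 overlapped. For Jund they were 1, 58 and 56 cells, and for Junb 29, 180 and 190 cells. The highest Fos count in an unthinned cell was 11 UMIs in spleen and 35 in each muscle library, and the highest Fosb count was 8, 31 and 31.

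**Figure D2:**
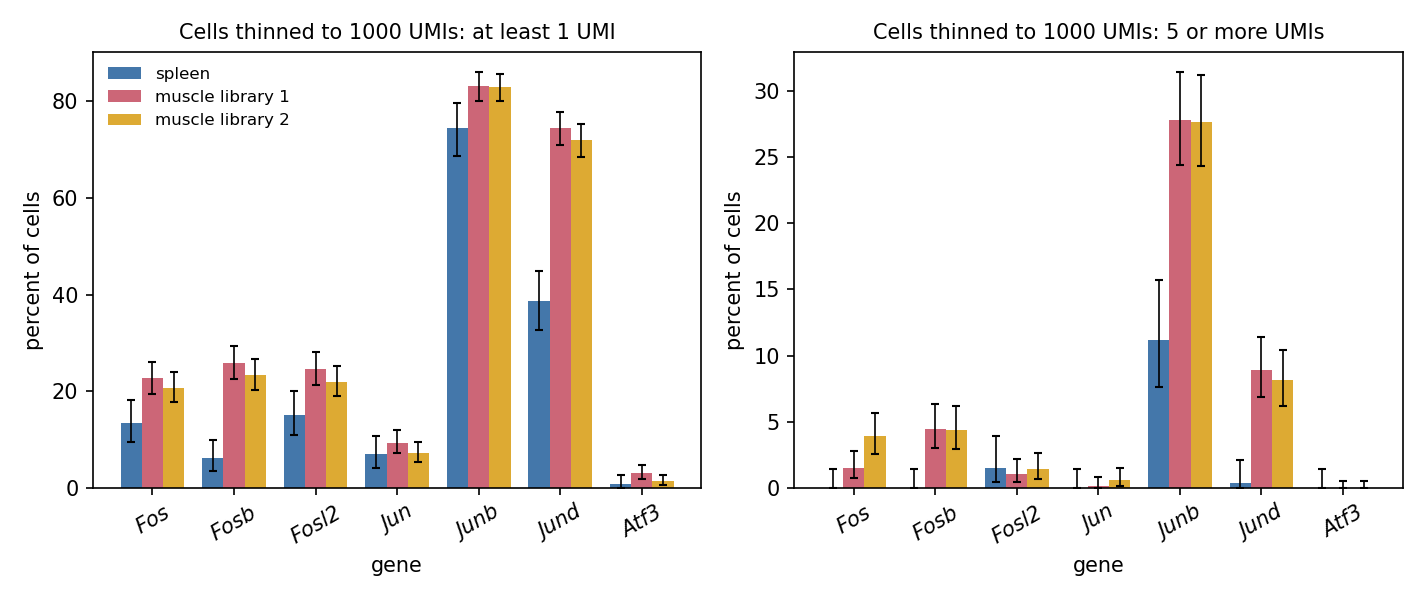
Percent of cells with at least 1 UMI (left) and with 5 or more UMIs (right) of each gene after each cell was thinned to 1000 UMIs; bars are library values and error bars are exact binomial 95% intervals. For Fosb the muscle bars stand at 25.8% and 23.4% against 6.18% in spleen on the left, and at 4.48% and 4.37% against 0 on the right.

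Fos and Fosb were also among the most unevenly distributed genes in muscle. The ratio of the variance to the mean over thinned cells (Fano factor) was 4.25 and 4.99 for Fos in the muscle libraries against 2.28 in spleen, and 4.73 and 4.17 for Fosb against 1.95. The median gene had 1.33 in muscle library 1, 1.48 in muscle library 2 and 1.49 in spleen. In muscle library 1 only 10 of 7614 genes had a larger Fano factor than Fos and 7 than Fosb, and in muscle library 2 it was 7 and 13 of 7616. The Fano factor grows with the mean level, which was higher in muscle for both genes. Jund was spread more evenly, with 1.33 in spleen and 1.95 and 1.91 in muscle.

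Depth per cell moved with these levels, and muscle cells were the shallower ones. In cells at or below their library's median depth, Fos was at 332.2 CPM in spleen and 647.03 and 871.9 CPM in muscle, against 175.1, 354.3 and 399.6 CPM in cells above it. Fosb was at 133, 835 and 897.6 CPM in the shallower cells and at 44.9, 497.7 and 391.1 CPM in the deeper ones. Fos, Fosb, Fosl2, Jun and Junb, 5 of the 7 members, were higher in the shallower cells of all 3 libraries, as were 14.8% of all genes tested. Jund was not among them, since it was at 527.9 and 537.7 CPM in the shallower and deeper spleen cells. In muscle, Jund too was higher in the shallower cells. It was at 2145 against 1545 CPM in muscle library 1 and 1829 against 1467 CPM in muscle library 2.

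The comparison was therefore repeated in cells of 2000 to 4000 UMIs, a choice made after the data had been seen, which held 52.1% of spleen cells and 39.5% and 51.7% of the cells of the muscle libraries. Median depths there were 3060, 2501 and 2712 UMIs. Jund kept its ratios, at 2.85 (2.47 to 3.30) and 2.89 (2.52 to 3.33). Fosb was at 115.5, 576.95 and 544.8 CPM, and its ratios were smaller, at 4.996 (3.70 to 6.89) and 4.72 (3.51 to 6.48). Fos was at 303.1, 456.99 and 490.3 CPM, with ratios of 1.51 (1.22 to 1.87) and 1.62 (1.33 to 1.98). Jun was below its spleen level here, at 180.4, 104.25 and 161.45 CPM with ratios of 0.578 (0.413 to 0.808) and 0.895 (0.677 to 1.19), of which the second interval includes no difference. Junb had ratios of 1.29 and 1.499, and Fosl2 of 1.196 and 1.24. Again Fosb and Jund, 2 of the 7 members, passed the 2-fold rule, which 13.2% of all genes tested passed upward in these cells. No UMI minimum was set within these cells, so that share includes genes at 0 in spleen here.

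Co-variation was taken over the cells of each library as Pearson's r of log-transformed counts per 10000 UMIs, as a description, since cells of a library share its preparation and differ in depth. Fos and Fosb had an r of 0.22 over the spleen cells, 0.34 over the cells of muscle library 1 and 0.40 over those of muscle library 2. In the thinned cells, 65 cells of muscle library 1 held both mRNAs where the product of the shares gives 37.9, a ratio of 1.72 (1.32 to 2.19). In muscle library 2 it was 71 cells against 33.3, a ratio of 2.13 (1.67 to 2.69). In spleen 4 cells held both against 2.16, and the interval of that ratio runs from 0.504 to 4.74.

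In muscle the other pairs were weaker. Fosb and Jund had an r of 0.04 in spleen against 0.29 and 0.26 in muscle libraries 1 and 2, and Fosb and Junb 0.04, 0.19 and 0.26. Fos and Jun had 0.04, 0.18 and 0.21, and in thinned cells they were seen together in 24 muscle library 1 cells against 13.8 from the product of shares, a ratio of 1.73 (1.11 to 2.58), and in 19 muscle library 2 cells against 10.3, a ratio of 1.84 (1.11 to 2.87). Junb and Jund, which most cells hold, had 0.28 in spleen and 0.20 in both muscle libraries. Fosl2 had a low r with the other Fos genes, at -0.18, 0.00034 and -0.03 with Fos and 0.07, 0.02 and -0.07 with Fosb. Over the 21 pairs the median r was 0.04 in spleen against 0.08 and 0.12 in muscle libraries 1 and 2, and most pairs were too weak in these sparse counts to be read as a relation.

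**Figure D3:**
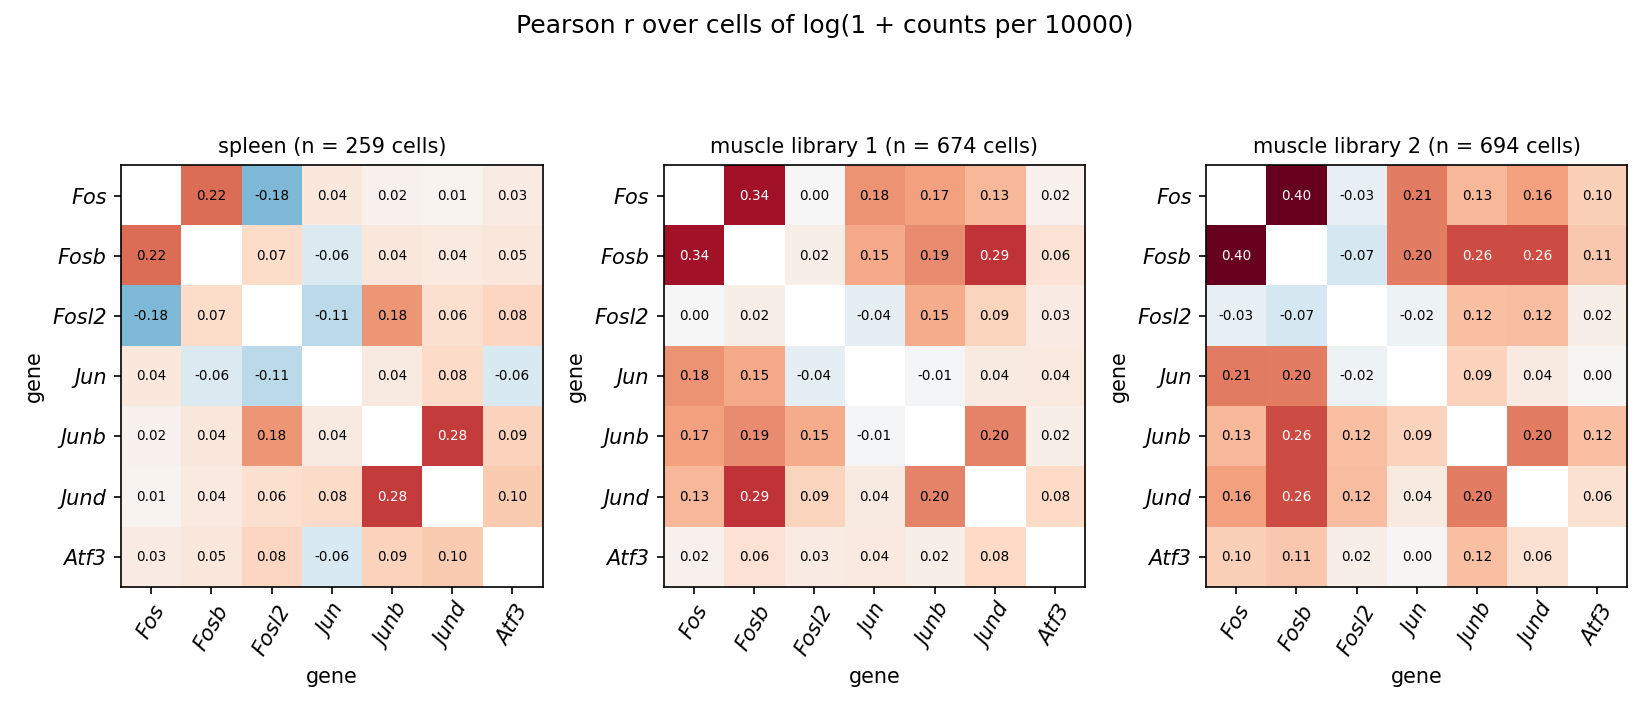
Pearson's r between each pair of the 7 genes over the cells of a library, on log(1 + counts per 10000 UMIs), with spleen, muscle library 1 and muscle library 2 from left to right; red is positive and blue is negative. Fos and Fosb give the darkest square in both muscle libraries, at 0.34 and 0.40, and the Fosl2 row stays pale against Fos and Fosb there.

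Cells were then sorted by whether they held Fos, Fosb, both or neither after thinning. Cells with both made up 1.54% of spleen, 10.03% of muscle library 1 and 10.3% of muscle library 2, and cells with neither made up 81.9%, 61.6% and 66.2%. In muscle, cells with both mRNAs also held the most Jund and Junb. Jund averaged 2.85 UMIs (2.45 to 3.29) per 1000 in those cells of muscle library 1 and 3.13 (2.73 to 3.57) in those of muscle library 2, against 1.54 UMIs in cells with neither in each library. Junb averaged 5.06 and 5.55 UMIs against 2.83 and 2.90. For Jund in muscle library 1, the interval of cells with both overlapped that of cells with Fosb alone, at 2.48 (2.18 to 2.81) UMIs.

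For Jund, cells with Fosb alone and cells with Fos alone differed. In muscle cells with Fosb but no Fos, Jund averaged 2.48 (2.18 to 2.81) and 2.07 (1.78 to 2.39) UMIs, whereas in cells with Fos but no Fosb it averaged 1.5 (1.25 to 1.79) and 1.44 (1.17 to 1.74), close to cells with neither. For Junb they differed in muscle library 2 only, with 3.0 (2.61 to 3.43) UMIs in cells with Fos alone and 4.36 (3.935 to 4.81) with Fosb alone. In muscle library 1 these Junb means were 3.73 (3.33 to 4.17) and 3.75 (3.38 to 4.14). Jun averaged 0.256 (0.159 to 0.391) and 0.310 (0.194 to 0.469) UMIs in cells with Fos alone and 0.127 (0.0679 to 0.218) and 0.211 (0.127 to 0.330) in cells with Fosb alone, against 0.0977 and 0.0703 in cells with neither. The intervals of Jun in the Fos alone and Fosb alone classes overlapped in each muscle library. In muscle cells with neither Fos nor Fosb, Jund remained above spleen, at 1.54 UMIs in each muscle library against 0.533 (0.439 to 0.641) in the same class of spleen cells. Cells with both mRNAs had a median depth before thinning of 2034 UMIs in muscle library 1 and 1978 in muscle library 2, against 2109 and 2555 for cells with neither.

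**Figure D4:**
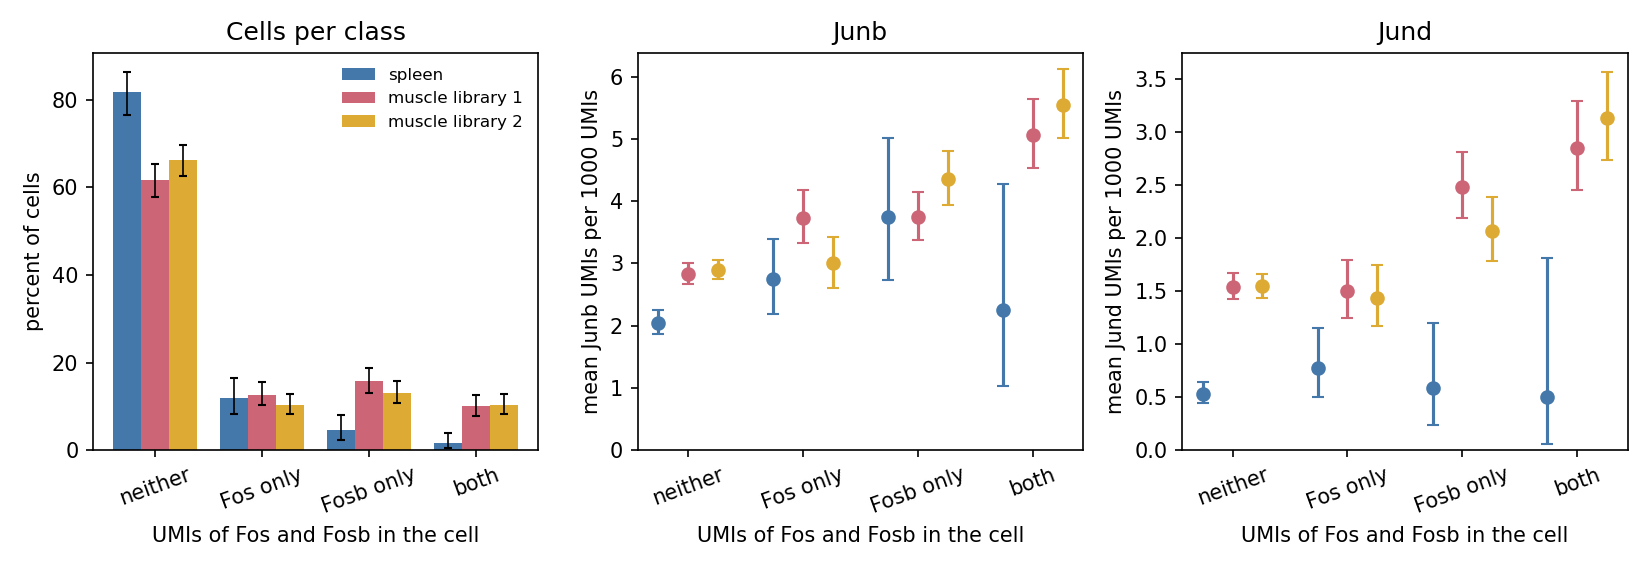
Percent of cells in each class of Fos and Fosb detection after thinning to 1000 UMIs (left), and mean Junb (centre) and Jund (right) UMIs per 1000 in each class; error bars are exact 95% intervals (binomial on the left, Poisson otherwise). In muscle, Jund is near 1.5 UMIs in cells with neither gene or Fos alone and above 2 in cells with Fosb, and the spleen points stay below 1.

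Counting how many of the 7 genes a thinned cell held, 4 or more were seen in 3.47% of spleen cells (1.60 to 6.49), 17.6% of cells in muscle library 1 (14.7 to 20.7) and 14.8% in muscle library 2 (12.3 to 17.7). If the 7 genes were seen independently at their shares, 1.86%, 13.5% and 10.3% of cells would hold that many. Cells with 5 or more made up 5.09% and 3.20% of the muscle libraries, where independence gives 2.05% and 1.28%.

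Cells were clustered without the 7 genes and without the immediate early and heat shock lists. The 8 clusters were called by number, with leading genes given for those named below. Spleen and muscle filled different clusters. Cluster 7, led by Nsg2, Tcf7 and Tbc1d4 and with Ccr7 among its leading genes, held 65.3% of spleen cells and 1.93% and 0.576% of muscle cells. Clusters 1 (led by Pcsk1, Penk and Plek) and 4 (led by Prg4) were the ones with at least 20 cells in every library. Cluster 1 held 8.49% of spleen cells (22 cells) and 25.96% and 23.9% of muscle cells, and cluster 4 held 16.6% (43 cells) and 14.2% and 18.4%.

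Jund was higher in muscle within both of these clusters. In cluster 1 it was at 621.15 CPM in spleen and 1670 and 1513 CPM in muscle, ratios of 2.69 (2.11 to 3.48) and 2.44 (1.91 to 3.15). In cluster 4 it was at 630.5, 1796 and 1283 CPM, ratios of 2.85 (2.23 to 3.66) and 2.03 (1.60 to 2.61). Jund was the 1 member of 7 that met the 2-fold rule in each of these clusters, as did 6.10% of all genes tested. No UMI minimum was set within the clusters, so that share includes genes at 0 in spleen there. With coarser clusters (resolution 0.5 in place of 0.8), which gave 2 other clusters with at least 20 cells in every library, Jund met the rule in both again, and so did Fosb. Its ratios there were 3.42 (2.13 to 5.84) and 2.44 (1.51 to 4.18) in one and 9.02 (5.58 to 15.6) and 8.12 (5.03 to 14.03) in the other, so the Fosb call depends on the clustering.

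Junb, in contrast, differed less between the tissues within clusters. In cluster 1 it was at 2706 CPM in spleen against 2941 and 3068 CPM in muscle, ratios of 1.09 (0.961 to 1.23) and 1.13 (1.004 to 1.28). In cluster 4 Junb was at 2768 CPM against 3272 and 3551 CPM, ratios of 1.18 (1.03 to 1.35) and 1.28 (1.14 to 1.45). Both intervals in cluster 4 lay above equality. In the coarser clusters the Junb ratios were 1.14 and 1.24 in one and 1.32 and 1.34 in the other. Within spleen, Junb was lower in cluster 7, at 1800 CPM, than in clusters 1 and 4. Cluster 7 gave 1093 of the 2088 Junb UMIs of spleen. Jun met the 2-fold rule in cluster 4, from 10 spleen UMIs, with ratios of 2.07 (0.955 to 4.85) and 4.49 (2.32 to 9.73). In cluster 1 the Jun ratios were 1.49 (0.629 to 4.28) and 1.74 (0.751 to 4.94). Spleen Jun was at 151.5 CPM in cluster 7, against 53.2 CPM in cluster 1 and 72.5 CPM in cluster 4.

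The Fos family differed by cluster. In cluster 1, Fos was at 204.1 CPM in spleen against 226.2 and 439.9 CPM in muscle, ratios of 1.11 (0.705 to 1.82) and 2.16 (1.41 to 3.46), so the muscle libraries disagreed there. In cluster 4 it was at 94.2 CPM (13 UMIs) in spleen, and the ratios were 5.18 (2.86 to 10.2) and 8.54 (4.88 to 16.3). Fosb had ratios of 2.84 (1.76 to 4.88) and 1.88 (1.16 to 3.25) in cluster 1 and of 3.99 (2.47 to 6.73) and 4.41 (2.79 to 7.32) in cluster 4, all below its ratios over all cells, which was not so in the second of the coarser clusters. In that cluster Fos had ratios of 23.7 (10.1 to 73.3) and 23.2 (9.86 to 71.6), from 5 spleen UMIs. In spleen, Fosb was at 52.7 CPM in cluster 7 against 159.7 CPM in cluster 1 and 152.2 CPM in cluster 4, whereas Fos was at 298.1 CPM in cluster 7. Fosl2 was higher in muscle in cluster 1, with ratios of 3.26 and 2.68, and near equal in cluster 4, with 0.928 and 1.11, but met the rule in neither of the coarser clusters. Counts in these clusters are small, as the widths of the intervals show.

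Within muscle, Fosb and Fosl2 were highest in different clusters. Fosb was highest in cluster 2, at 1049 and 1012.8 CPM, which was 2.31-fold and 3.36-fold above cluster 1, its lowest cluster in both libraries. Fosl2 was highest in cluster 5, at 622.9 and 583.4 CPM, and lowest in cluster 3 (led by the interferon-induced Ifit3), at 227.2 and 234.99 CPM. Fos was also lowest in cluster 1, at 226.2 and 439.9 CPM, but its highest cluster differed between the libraries. Junb and Jund varied less, with a highest cluster 1.45-fold to 1.78-fold above the lowest in each library. The 6 clusters compared here also differ in depth, from a median of 1736 UMIs in cluster 4 to 3008 in cluster 1, so the cluster with the lowest Fos and Fosb held the deeper cells. The part of depth in these differences was not tested. With finer clusters (resolution 1.2, numbered anew), clusters 5 and 10 were highest for both Fosb and Fosl2 in muscle library 2. There Fosb was at 1062 and 958.3 CPM and Fosl2 at 625.98 and 641.1 CPM. In muscle library 1 the finer peaks differed, with Fosb at 1157 CPM in cluster 5 and Fosl2 at 779.2 CPM in cluster 2.

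**Figure D5:**
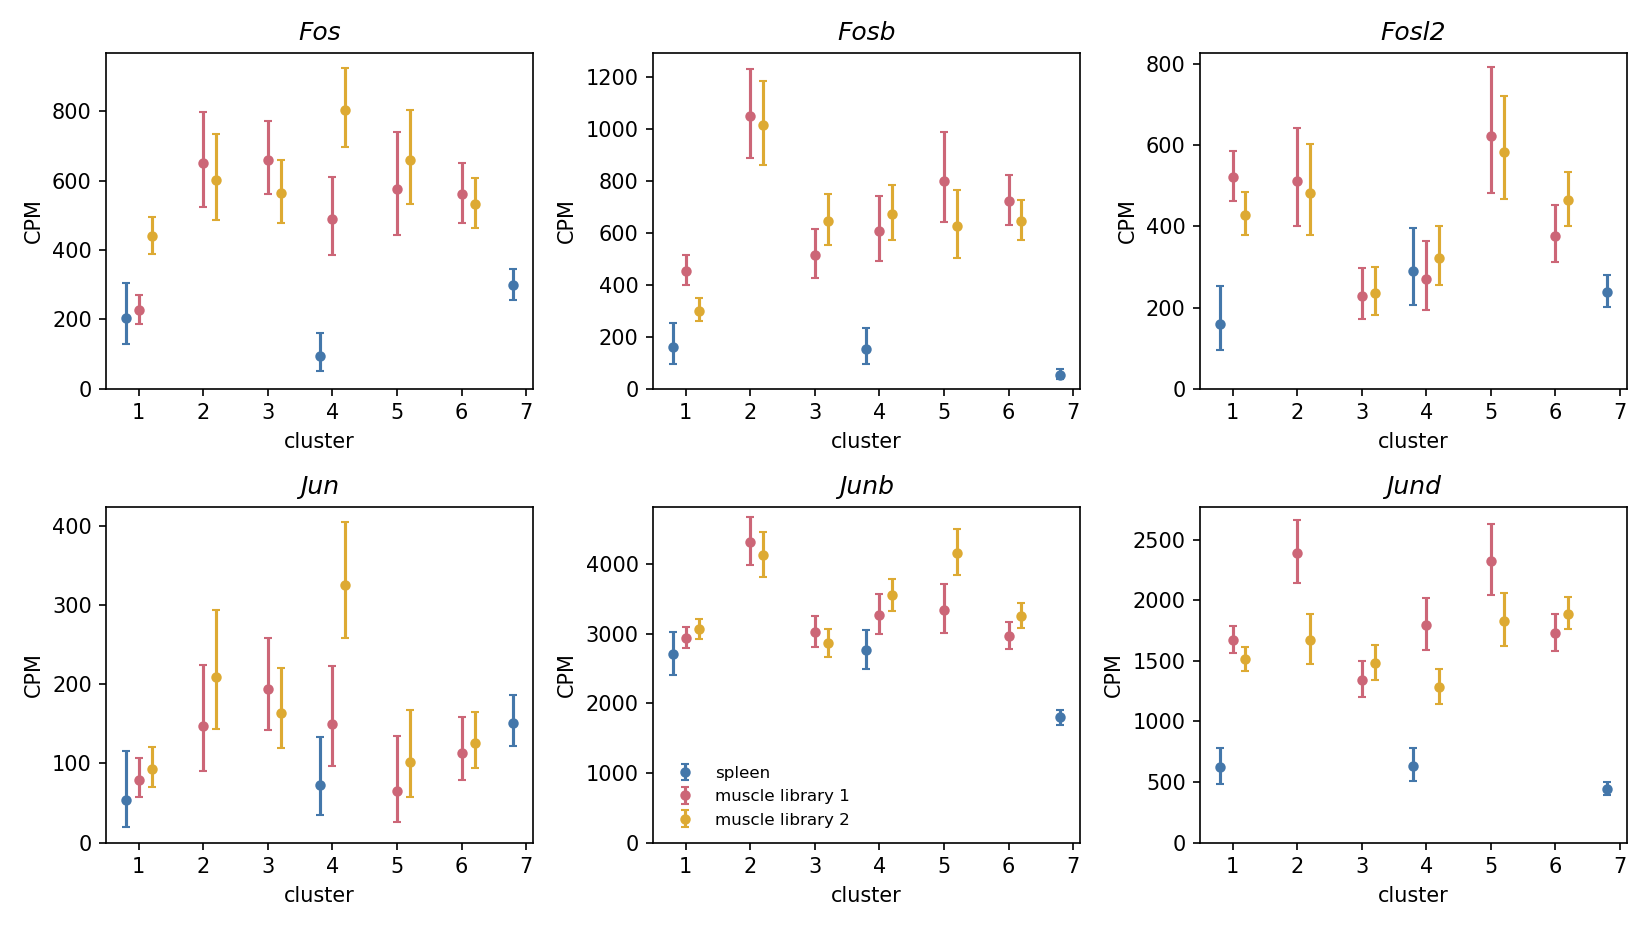
Level of 6 of the genes in CPM, by cluster and library, for clusters with at least 20 cells in that library; points are sums over the cells of a cluster and bars are exact Poisson 95% intervals. Jund is higher in muscle than in spleen in clusters 1 and 4. There the Junb points of the 3 libraries lie closer together than those of Jund, with muscle above spleen. Fosb peaks in cluster 2.

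Other genes of the pathway were taken from lists by their known roles. The counts of each list below stand beside 7.47% called higher and 3.45% called lower over all genes tested. Of 27 further basic leucine zipper factors, 20 were measured. In muscle 2 of them were higher and 1 was lower, and their median log2 fold was 0.19. Jdp2, a dimer partner that represses AP-1 targets, went from 5.09 CPM in spleen (5 UMIs) to 27.4 and 44.4 CPM. The small Maf protein gene Mafg went from 10.2 CPM (10 UMIs) to 29.3 and 36.5 CPM. Bach2, a repressor that competes for AP-1 sites in T cells, went from 74.3 CPM to 7.83 and 8.35 CPM. Crem (1.97-fold and 1.98-fold), Maf (2.13-fold and 1.74-fold) and Cebpb (1.60-fold and 1.47-fold) missed the rule.

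Of 25 kinases and factors upstream of AP-1, 20 were measured, of which 2 were higher and 1 was lower, and their median log2 fold was -0.03. Map2k1, which encodes the kinase MEK1, went from 51.9 CPM to 117.4 and 136.7 CPM. Prkcq, which encodes protein kinase C theta, went from 144.5 to 63.3 and 64.7 CPM. Mef2d went from 5.09 CPM (5 UMIs) to 13.7 and 13.6 CPM. Its interval in muscle library 1 (0.988 to 9.14) includes no difference. Of 7 partners, among them NFAT genes, the 1 past the rule was Runx3 (2.28-fold and 2.59-fold), and the median was -0.23. Of 16 known AP-1 targets only 4 were measured. Mmp9, a matrix protease with 6 spleen UMIs, was 13.7-fold and 14.8-fold higher. The adhesion receptor Cd44 was 2.84-fold and 2.12-fold higher (under the rule with totals that leave out ribosomal protein genes). Cd69, an activation marker, was at 1.24-fold and 1.12-fold, and Tnf at 1.08-fold and 1.22-fold.

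The other immediate early genes did not move in 1 direction. Of 27 listed, 23 were measured, of which 3 were higher and 2 were lower, and their median log2 fold was 0.23. Nr4a1, which T cell receptor signals induce, was 2.59-fold and 2.43-fold higher, Zfp36 2.70-fold and 2.56-fold and Nfkbia 2.06-fold and 2.02-fold (under the rule with each of 3 other scalings), whereas Nr4a2 went from 230 CPM to 61.3 and 72.5 CPM and Egr2 from 56.99 to 16.96 and 13.04 CPM. Of 11 heat shock genes, whose mRNAs also rise with stress, 0 were higher and 1 was lower (Hsph1, from 246.3 to 103.05 and 75.7 CPM), and their median log2 fold was -0.56. The part of digestion in the levels of Fosb and Jund cannot be told apart from that of the tissue.

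Over single cells, the summed level of the 7 genes was most like that of Nr4a1 among 4118 genes seen in at least 5% of the cells of each library, the 7 genes themselves left out of this and the following rankings, with an r of 0.29 in spleen against 0.34 and 0.35 in muscle libraries 1 and 2. Egr1 (0.09, 0.29 and 0.31) and Dusp1 (0.32, 0.24 and 0.30) followed. Against the summed immediate early list, which holds these genes, the r of the 7 genes was 0.34, 0.50 and 0.51, and against the heat shock list it was -0.04, -0.05 and 0.11. Taken singly, Egr1 was the gene outside the 7 most like Fos (0.12, 0.30 and 0.37) and most like Fosb (0.07, 0.35 and 0.36). The next genes for Fos were Klf2 (0.05, 0.28 and 0.37) and Klf6 (0.09, 0.25 and 0.23), and for Fosb they were Rgcc (-0.06, 0.25 and 0.27) and Tsc22d3 (-0.10, 0.24 and 0.25).

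Egr1 also led for Jun (0.06, 0.23 and 0.19), followed by Zfp36 (0.09, 0.16 and 0.16) and Klf2 (0.09, 0.16 and 0.11). Junb (0.26, 0.25 and 0.25) and Jund (0.16, 0.32 and 0.20) were, outside the 7, most like Nr4a1. Csrnp1 and Ppp1r15a came next for Junb, and Egr1 (-0.0037, 0.21 and 0.17) and Nfkbid (0.08, 0.16 and 0.15) for Jund. For Fosl2 the closest genes were Odc1, Nr4a1 and Nfkbid, and for Atf3 they were Hk1, Gadd45b and Rnf19b. Their r was at most 0.18 in muscle, too weak to be read as a relation. The same limit holds for Zfp36 and Klf2 with Jun and for Nfkbid with Jund.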

How the data were processed

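The authors deposited raw UMI counts per gene and cell for 23725 genes and 1627 cells, and every cell was used. Per the submitters' processing notes, reads were handled with TopHat2 and SAMtools on the mm10 build. Their versions, the annotation, and how strand and UMIs were treated and cells filtered are not stated in the labels. Cells were assigned to 3 libraries by the labels, and counts were summed per library, scaled to CPM and compared by the 2-fold rule of size. With 1 library as 1 sample no test was run, and intervals (95%, exact) cover counting error alone.

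For shares, cells were thinned without replacement to 1000 UMIs (seed 1). Clusters used 1500 variable genes, 20 principal components, 15 neighbours and Leiden resolution 0.8. No doublet caller was run, and the 12 and 7 muscle cells over 3 times the library median of UMIs were kept. edgeR and DESeq2 gave scaling factors only. Gene positions come from GENCODE M21 (GRCm38, 96.2% of symbols matched) and promoters from RefSeq (GRCm38.p6, 7 of 7 members matched). Scripts were tested on simulated data.

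The members, lists and rules were chosen with earlier results of these data known. Named are the 7 members, the genes of each pathway list past the rule with up to 3 others of most UMIs, and the 3 genes most like each member by the smaller muscle r; some listed genes are not reported here. Alternatives covered scaling, UMI minimum, fold, cell weights, thinning depth, depth classes, the correlation measure, clustering resolution and leaving out each muscle library; the window of cell depths was added after the data were seen. Software was DESeq2 1.42.0 and edgeR 4.0.16 under R 4.3.3, and Python 3.11.15 with scanpy 1.11.5, igraph 0.11.9, scipy 1.17.1, pandas 2.3.3, numpy 2.4.6 and matplotlib 3.10.9.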

Additional observations from a re-analysis of the deposited data

How the results depend on the processing

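Fosb passed the 2-fold rule under each alternative run, and Jund under each but a 3-fold rule, which left 1 member (Fosb). Fos passed with a 1.5-fold rule, with equal weight per cell (log2 fold 1.202), without cells over 3 times the median UMI count and in muscle library 2 alone, which made 3 members; leaving out each muscle library in turn gave 2 to 3. Atf3 turned lower (log2 fold -0.17) in muscle library 2 alone, against 0.78 in muscle library 1 alone, and Jun (-0.48) in cells of 2000 to 4000 UMIs. Over the alternatives the mean log2 fold ran from 2.28 to 3.01 for Fosb, 1.48 to 1.74 for Jund, 0.64 to 1.27 for Fos, 0.44 to 0.63 for Junb, 0.29 to 0.63 for Fosl2, -0.48 to 0.40 for Jun and -0.17 to 1.25 for Atf3.

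Totals without ribosomal protein genes moved the median of all genes from 0.05 to -0.10 and the share of higher calls from 68.4% to 51.6%, so folds are read relative to that shift; upstream genes called lower then numbered 2 (with Map3k1) and targets called higher 1. Counts of all genes called ran from 211 to 1924 higher and 66 to 1250 lower. The mean muscle r of Fos and Fosb was 0.37, and 0.30 on thinned counts; this pair had the highest mean muscle r of the 21 in each of 6 settings. Members whose share intervals lay above spleen numbered 3 or 4 (Fosl2 joined at 750 and 1500 UMIs, and replaced Junb without thinning). At resolution 0.5 Fosb met the rule in 2 shared clusters and Fosl2 in 0, against 1 each. At resolution 1.2 no cluster had 20 cells in every library, so no ratio of muscle to spleen was given. The causes were not tested. No paired analysis was possible because replicate numbers are cell numbers and spleen has 1 library. Depth limits Atf3 most, with 19 spleen UMIs.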
